A study of Mus musculus with 12 samples.

Results

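The genes described here encode the collagens, the laminins and the other core proteins of basement membranes, together with fibronectin and the elastic fibre proteins. They were chosen by gene symbol alone, with a pattern that takes every collagen chain, laminin chain, nidogen, fibrillin, fibulin and emilin symbol plus Hspg2, Agrn, Fn1, Tinag, Tinagl1 and Eln. The pattern found 67 of the 23378 genes in the table. Of these, 53 passed the filter on low counts and were tested among 14180 genes, and the other 14 held at most 54 counts over all libraries. The 14 were Lamb3, Fbln1 and 12 collagen chains (Col17a1, Col19a1, Col22a1, Col23a1, Col2a1, Col5a3, Col6a1, Col6a2, Col6a4, Col6a6, Col9a1 and Col9a3).

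RNA was sequenced from cells sorted out of digested mouse kidney cortex. All mice were C57BL/6 and carried nNos CreERT2 with the mTmG reporter, in which cells with recombinase activity change from membrane tdTomato (red) to membrane GFP (green). Green cells were taken as macula densa cells, the tubule cells that sense salt delivery and signal to the glomerulus beside them, and cells with the most intense red were taken as control cells meant to represent distal tubule and collecting duct epithelium. The 4 groups were macula densa cells on control diet (2 libraries), macula densa cells on a low salt diet with the ACE inhibitor enalapril at 150 mg per litre in drinking water (2 libraries), and control cells on each diet (4 libraries each), all after 14 days. The age and sex of the mice, and whether each library came from 1 animal, are not given in the sources used here, so p-values measure only the spread between these libraries. Below, "low salt" stands for the low salt diet with enalapril.

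A basement membrane is a thin sheet of matrix under every epithelium and around capillaries. It is built from a laminin network and a type IV collagen network, joined by nidogens and heparan sulfate proteoglycans such as perlecan (Hspg2) and agrin (Agrn). Type IV collagen chains combine into fixed trimers: Col4a1 with Col4a2 in nearly all basement membranes, Col4a3 and Col4a4 with Col4a5 in the glomerular basement membrane and parts of the distal nephron, and Col4a5 with Col4a6 in a more restricted set. The genes lie in head-to-head pairs, in which 2 neighbours are read in opposite directions from nearby starts.

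Levels below are CPM, the edgeR measure of a gene's share of the TMM-scaled library total, and for comparison between genes they are divided by the length of the gene's exons in kilobases. Library totals lay between 4259020 and 14856542 counts, of which Gm42418, a gene over ribosomal RNA sequence, took 53.5% to 65.0%. In CPM, 3 counts came to 0.231 to 0.734, so differences between levels under about 1 CPM were hard to detect at this depth. The sort was checked with Nos1, whose promoter drives the recombinase: its level was 100.4 to 232.2 CPM in macula densa libraries and 0.109 to 0.735 CPM in control-cell libraries (log2 fold change 8.26 ± 0.27 SE, edgeR quasi-likelihood adjusted p = 7.87e-09). Control cells held more than the epithelium their label names: principal cell markers summed to 100.6 to 782 CPM in them, podocyte markers (8 genes) summed to 49.2 to 1464 CPM and endothelial markers (8 genes) to 44.3 to 1499 CPM. Macula densa libraries held 21 to 161.9 CPM of podocyte and 13.3 to 169.1 CPM of endothelial markers, and no marker on either list was at 0 in all 4. The top of both ranges was replicate 1 on control diet. Its 2 lists summed to 331 CPM, against 47.9 CPM in replicate 2 and 53.1 and 34.3 CPM on low salt. Of the control-cell libraries, 3 stood apart with low sums of the 2 lists: replicate 4 on control diet (93.5 CPM) and replicates 1 and 3 on low salt (486.5 and 478.2 CPM), against 1588 to 2963 CPM in the other 5. For the member calls described below that were lost when those 5 libraries were left out, the adjusted p without them is given. In bulk samples, fewer cells of a type and less RNA per cell cannot be told apart.

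The sequence at the start of each type IV collagen pair is shown because the members of 2 of these pairs moved in parallel and the pairs moved in opposite directions. Sequences are RefSeq's for GRCm38.p6, 5′ to 3′, with the GC box (GGGCGG on either strand) in capitals. Col4a1 and Col4a2 overlap by 22 bases at their first exons (chr8:11312805-11312826, plus strand). The starts of Col4a3 and Col4a4 lie 71 bases apart (chr1:82586850-82586920, minus strand, the direction of Col4a4). Those of Col4a5 and Col4a6 lie 1308 bases apart, and the 150 bases before each start are given (chrX:141475235-141475384, plus strand, and chrX:141474077-141474226, minus strand).
Col4a1 and Col4a2 shared start: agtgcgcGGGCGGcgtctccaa
Col4a3 and Col4a4 between starts: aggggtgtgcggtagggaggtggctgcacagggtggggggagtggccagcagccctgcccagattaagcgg
Col4a5 upstream: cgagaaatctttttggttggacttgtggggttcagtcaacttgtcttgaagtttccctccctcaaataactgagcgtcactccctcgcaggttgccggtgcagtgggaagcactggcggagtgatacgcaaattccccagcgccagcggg
Col4a6 upstream: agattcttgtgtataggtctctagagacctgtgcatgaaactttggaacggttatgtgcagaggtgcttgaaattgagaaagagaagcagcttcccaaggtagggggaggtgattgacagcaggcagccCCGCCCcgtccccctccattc
A GC box was found in the shared Col4a1 and Col4a2 start and before Col4a6, and not in the Col4a3 and Col4a4 interval or before Col4a5. The letters CCAAT and TATAAA, searched on both strands, were in none of the 4 windows. The windows differ in length, and the first lies in transcribed sequence while the others lie upstream of gene starts. They are thus not directly comparable, and no link between these letters and RNA levels was tested. Among 32851 RefSeq promoter windows cut to the same lengths, GGGCGG was present in 4.09% at the first 22 bases from the gene start, 20.7% at 71 bases before it and 28.6% at 150 bases before it. CCAAT was present in 2.28%, 13.3% and 24.5%, and TATAAA in 0.508%, 4.41% and 7.57%. RefSeq promoter entries matched 48 of the 67 members; over their 300-base windows, GGGCGG was present in 60.4% against 35.7% of all promoters, CCAAT in 35.4% against 37.4%, and TATAAA in 8.33% against 13.6%.

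Macula densa cells held less RNA for many of these genes than the control cells. Averaged over both diets, 27 of the 53 tested members were lower (50.9%) and 9 were higher (17%), where 13.9% of all genes tested were lower and 7.48% higher (edgeR quasi-likelihood, adjusted p under 0.05 over all genes). The median log2 fold change of the members was -1.81, against -0.06 for all genes. The direction differed by class: type IV collagen had 2 higher and 2 lower of 6, laminins 1 and 5 of 10, linkers and heparan sulfate proteoglycans 0 and 6 of 8, fibronectin and elastic fibre genes 1 and 7 of 9, and other collagens 5 and 7 of 20. The members together summed to 877 to 1275 CPM in macula densa libraries and 1158 to 1918 CPM in control-cell libraries.

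Within type IV collagen, Col4a1 and Col4a2 were about 4-fold lower in macula densa cells, Col4a3 and Col4a4 were higher, and no difference was detected for Col4a5 and Col4a6. Col4a1 (chromosome 8, 11198423 to 11312826, minus strand) measured 46.6 and 27.1 CPM in macula densa cells on control diet and 46.0 and 37.6 CPM on low salt. In control cells it measured 214.9, 225.2, 175.0 and 110.6 CPM on control diet and 120.8, 151.8, 90.1 and 154.7 CPM on low salt. The highest macula densa library was thus below the lowest control-cell library. The log2 fold change was -1.97 ± 0.26 (SE; adjusted p = 0.000386).

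Col4a2 (chromosome 8, 11312805 to 11449287, plus strand) followed its partner. It measured 32.2 and 20.9 CPM, then 22.4 and 22.3 CPM, in macula densa cells on control diet and low salt, and 141.6, 142.8, 102.3 and 55.6 CPM, then 76.6, 91.8, 83.8 and 92.4 CPM, in control cells. Its libraries did not overlap between the populations either, and the log2 fold change was -2.00 ± 0.26 (SE; adjusted p = 0.000363). Reads in the short stretch the 2 genes share cannot be assigned with certainty, since the strand setting of the counting is not given in the sources used here.

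Col4a3 (chromosome 1, 82586921 to 82722059, plus strand), one of the chains mutated in Alport syndrome, went the other way. It measured 214.8 and 201.9 CPM in macula densa cells on control diet and 378.9 and 271.8 CPM on low salt. In control cells it measured 201.6, 144.2, 132.2 and 92.3 CPM on control diet and 92.0, 168.0, 102.5 and 141.1 CPM on low salt. All 4 macula densa libraries were above all 8 control-cell libraries, by a margin of under 1 CPM between the nearest pair on control diet, and the log2 fold change was 0.96 ± 0.22 (SE; adjusted p = 0.00994).

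Col4a4 (chromosome 1, 82448423 to 82586849, minus strand), its neighbour and trimer partner, measured 236.1 and 206.7 CPM, then 314.6 and 302.3 CPM, in macula densa cells on control diet and low salt. Control cells had 160.2, 133.7, 162.1 and 236.8 CPM on control diet and 121.0, 148.9, 139.9 and 136.8 CPM on low salt. Replicate 4 of the control cells on control diet lay among the macula densa libraries, so the populations overlapped. The log2 fold change was 0.76 ± 0.16 (SE; adjusted p = 0.00661), and without the 5 control-cell libraries high in glomerular markers it was 0.57 with an edgeR adjusted p of 0.0914.

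Col4a5, which joins either trimer that contains it, lay between 21.8 and 37.6 CPM in macula densa libraries and between 19.7 and 31.9 CPM in control-cell libraries. Its log2 fold change was 0.00 ± 0.18 (SE; adjusted p = 0.992). Col4a6, its head-to-head neighbour on the X chromosome, was low throughout, at 2.68 to 4.43 CPM in macula densa libraries and 1.89 to 6.37 CPM in control-cell libraries (log2 fold change 0.13 ± 0.32 SE, adjusted p = 0.817). The ranges of both genes overlapped between the populations.

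**Figure D1:**
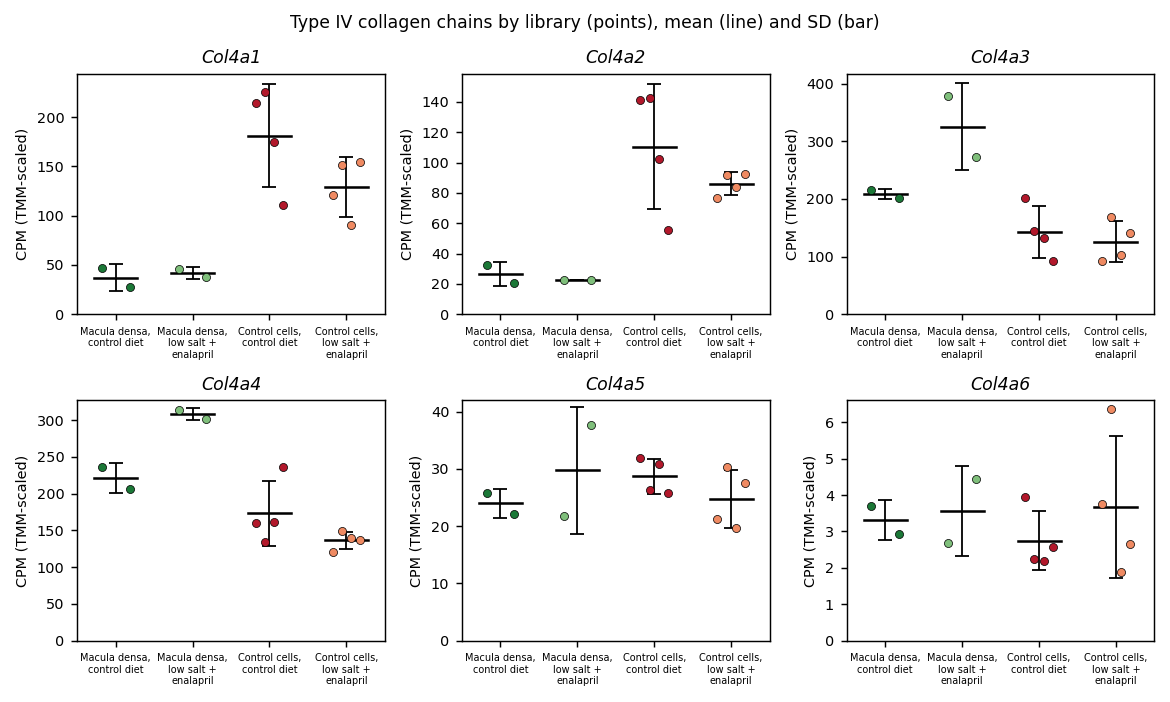
Type IV collagen chains, 1 panel per gene: CPM (y axis, from 0) in each library by group (x axis), with the mean as a line and the SD as a bar. Col4a1 and Col4a2 were lower in all 4 macula densa libraries than in all 8 control-cell libraries, Col4a3 was higher in all 4, and Col4a5 and Col4a6 overlapped.

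The proportions within a library do not depend on scaling between libraries, and they set the populations apart. Per kilobase of exon, Col4a3 and Col4a4 together made up 74.0%, 79.2%, 83.7% and 79.3% of type IV collagen RNA in the macula densa libraries (control diet 1 and 2, low salt 1 and 2). In control cells their share was 38.9%, 32.6%, 39.5% and 53.5% in replicates 1 to 4 on control diet and 39.7% to 45.7% on low salt. Col4a1 and Col4a2 together made up 11.8% to 18.8% of the type IV collagen RNA in macula densa libraries and 39.4% to 62.3% in control-cell libraries, with no overlap. The level of Col4a3 per kilobase was 3.45 to 6.17 times that of Col4a1 in macula densa libraries and 0.480 to 0.852 times in control-cell libraries. Replicate 4 on control diet, the control-cell library lowest in glomerular markers, had a ratio of 0.624, inside the range of the other control-cell libraries. By the shares it was the control-cell library nearest to the macula densa libraries. Its share of Col4a3 with Col4a4 (53.5%) was the highest among control-cell libraries, and that of Col4a1 with Col4a2 (39.4%) the lowest. Col4a5 contributed 4.02% to 7.95% and 4.70% to 6.52% of the type IV collagen RNA in the 2 populations.

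Ranked by mean CPM per kilobase of exon, the leading members in macula densa cells were Col4a3 (26.8), Col4a4 (25.0), Lamb1 (13.0), Col18a1 (10.7) and Col4a1 (5.27). In control cells they were Col18a1 (22.5), Col4a1 (20.8), Col4a2 (14.9), Col4a4 (14.6) and Col4a3 (13.5). Col18a1, the precursor of endostatin, is a heparan sulfate collagen of basement membranes.

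**Figure D2:**
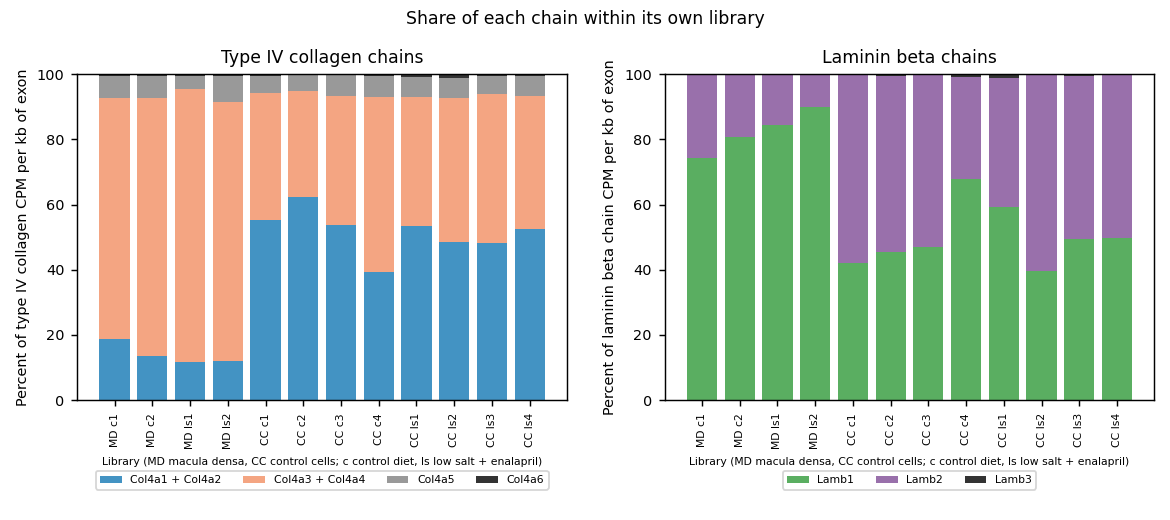
Share of each type IV collagen chain (left) and laminin beta chain (right) within its own library, as a percent of CPM per kilobase of exon (y axis), with 1 bar per library (x axis). Col4a3 with Col4a4 took 74.0% to 83.7% in macula densa libraries and 32.6% to 53.5% in control-cell libraries, and Lamb1 took 74.4% to 89.8% against 39.5% to 67.9%.

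Laminins are trimers of an alpha, a beta and a gamma chain, and most of the chains that form the main kidney trimers were lower in macula densa cells. Lama5, the alpha chain of mature tubular and glomerular laminins, measured 29.4 and 31.3 CPM in macula densa cells on control diet and 44.3 and 41.7 CPM on low salt. Control cells had 76.4, 71.9, 82.3 and 68.5 CPM on control diet and 84.1, 89.1, 122.0 and 77.2 CPM on low salt, all above the macula densa libraries. The log2 fold change was -1.21 ± 0.16 (SE; adjusted p = 0.000391), and it was -1.22 without the 5 libraries high in glomerular markers.

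The beta chains split. Lamb2 (chromosome 9, 108479736 to 108490530, plus strand), the beta chain of the mature glomerular basement membrane, measured 24 and 15.6 CPM, then 15.9 and 10.7 CPM, in macula densa cells on control diet and low salt. In control cells it measured 77.1, 65.4, 56.3 and 27.5 CPM on control diet and 46.3, 72.7, 55.4 and 55.6 CPM on low salt. No macula densa library reached the lowest control-cell library, and the log2 fold change was -1.81 ± 0.28 (SE; adjusted p = 0.00114).

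Lamb1 (chromosome 12, 31265234 to 31329644, plus strand), the beta chain more typical of tubular and developing basement membranes, measured 113.6 and 105.5 CPM in macula densa cells on control diet and 143.3 and 153.7 CPM on low salt. Control cells had 91.0, 89.0, 82.2 and 97.2 CPM on control diet and 112.5, 77.4, 89.3 and 89.7 CPM on low salt. Only replicate 1 of the control cells on low salt overlapped the macula densa range. The log2 fold change was 0.49 ± 0.14 (SE; adjusted p = 0.0242); across the alternatives the adjusted p rose to 0.368, its value without the 5 libraries high in glomerular markers (log2 fold change 0.36). The call was also lost without any 1 macula densa library, without control-cell replicate 3 on control diet or without replicate 4 on low salt. Per kilobase, Lamb1 exceeded Lamb2 by 2.90 to 8.84 times in macula densa libraries, and the ratio was 0.653 to 2.17 in control cells, where replicate 4 on control diet gave the highest value.

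Lamc1, the gamma chain of most laminins, measured 23.7 and 23.5 CPM, then 28.9 and 30.8 CPM, in macula densa cells on the 2 diets. Control cells had 68.5, 50.7, 54.6 and 37.1 CPM, then 33.2, 51.9, 46.4 and 46.9 CPM. The populations did not overlap and the log2 fold change was -0.87 ± 0.19 (SE; adjusted p = 0.00705), but without the 5 libraries high in glomerular markers it was -0.54 with an edgeR adjusted p of 0.157.

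Lama3, the alpha chain of epithelial anchoring laminin, was lower in macula densa cells. It measured 2.36 and 2.28 CPM on control diet and 1.92 and 0 CPM on low salt, against 18.6, 13.2, 14.0 and 4.96 CPM, then 9.45, 10.3, 10.5 and 17.8 CPM, in control cells. The populations were apart, with a log2 fold change of -3.08 ± 0.53 (SE; adjusted p = 0.00234). Lama4, the alpha chain of endothelial laminin, measured 2.87 and 3.42 CPM, then 0.766 and 0.820 CPM, in macula densa cells. In control cells it measured 20.7, 14.7, 10.95 and 1.14 CPM, then 3.54, 7.84, 3.36 and 11.9 CPM, and so was lowest in the libraries low in glomerular markers. Its log2 fold change of -2.48 ± 0.67 (SE; adjusted p = 0.0217) became -0.33 (adjusted p = 0.855) without the 5 libraries high in those markers, and did not pass without any 1 macula densa library either. Of other laminin chains, Lama1, Lama2 and Lamc3 were at most 2.255 CPM in any library, and none passed the test (adjusted p 0.789, 0.0518 and 0.171).

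**Figure D3:**
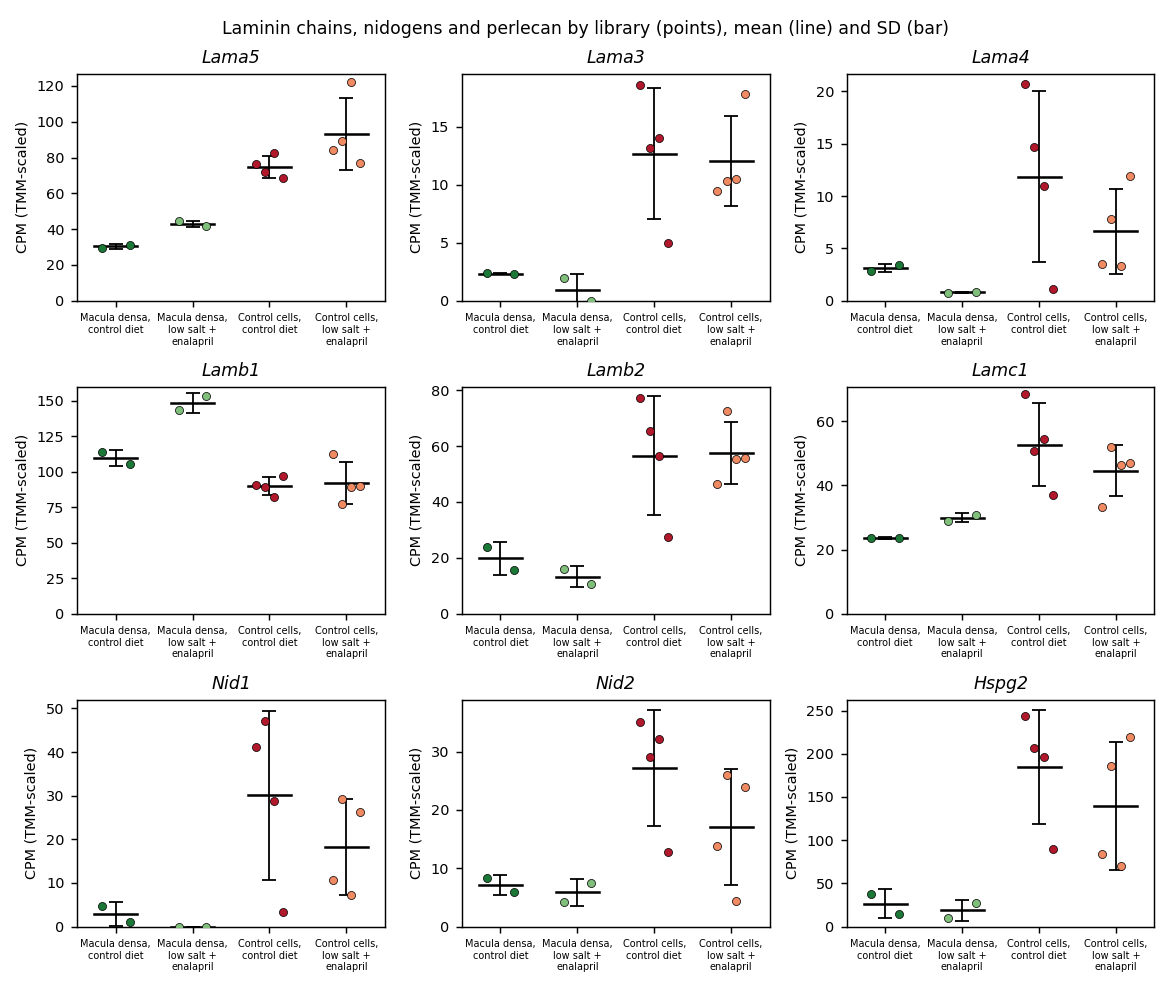
Laminin chains, Nid1, Nid2 and Hspg2, 1 panel per gene: CPM (y axis, from 0) in each library by group (x axis), with the mean as a line and the SD as a bar. Lama5, Lama3, Lamb2, Lamc1 and Hspg2 were lower in all 4 macula densa libraries than in all 8 control-cell libraries, Lamb1 ran the other way with overlap, and Nid1 was at 0 counts in both macula densa libraries on low salt.

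Linkers and heparan sulfate proteoglycans had 6 of 8 members lower and none higher. Tinagl1 (chromosome 4, 130164454 to 130175122, minus strand), a secreted glycoprotein of tubular and vascular basement membranes related to Tinag, had the smallest adjusted p of all members. It measured 7.59 and 3.67 CPM, then 6.13 and 2.13 CPM, in macula densa cells on the 2 diets, and 35.7, 37.5, 35.0 and 22.6 CPM, then 27.5, 36.0, 21 and 29.0 CPM, in control cells. The lowest control-cell library was well above the highest macula densa library, and the log2 fold change was -2.67 ± 0.32 (SE; adjusted p = 0.000204), or -2.31 without the 5 libraries high in glomerular markers. Tinag itself was at 0.766 to 3.91 CPM and 0.328 to 4.23 CPM in the 2 populations (adjusted p = 0.790).

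Hspg2 (chromosome 4, 137468769 to 137570630, plus strand) encodes perlecan. It measured 38.3 and 14.8 CPM, then 10.2 and 27.6 CPM, in macula densa cells, and 243.4, 207.2, 196.5 and 90.2 CPM, then 84.2, 186.1, 69.7 and 219.8 CPM, in control cells. The populations were apart, and the 3 control-cell libraries low in glomerular markers were the 3 lowest. The log2 fold change was -2.84 ± 0.47 (SE; adjusted p = 0.00173), and -1.90 (adjusted p = 0.00156) without the other 5.

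Agrn, the second large heparan sulfate proteoglycan, measured 16.0 and 16.5 CPM, then 29.1 and 19.7 CPM, in macula densa cells and 34.0 to 63.4 CPM in control cells. Col18a1 measured 71.3 and 53.4 CPM, then 98.1 and 77.9 CPM, against 110.7 to 227.1 CPM. Both were lower in every macula densa library than in every control-cell library, with log2 fold changes of -1.28 ± 0.21 and -1.08 ± 0.17 (SE; adjusted p = 0.00179 and 0.00147). For Col18a1, replicate 4 on control diet was the highest control-cell library, where for Hspg2 it was among the lowest.

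The nidogens bridge laminin to type IV collagen. Nid1 (chromosome 13, 13437551 to 13512269, plus strand) measured 4.82 and 0.978 CPM in macula densa cells on control diet and had 0 counts in both libraries on low salt. Control cells had 41.1, 47.1, 28.9 and 3.31 CPM on control diet and 10.8, 29.1, 7.14 and 26.2 CPM on low salt, again lowest in the 3 libraries low in glomerular markers. On low salt, mean Nid1 was at least 34.3-fold lower in macula densa cells, from the control-cell mean (18.3 CPM) over a floor of 3 counts per library. Control-cell replicates 1 and 3 lay nearer that floor, at 10.8 and 7.14 CPM. The edgeR adjusted p of 0.0230 is that of the fitted difference, not of the bound. The bounds given below for Fbln2 and Emilin2 are of the same kind. Nid2 measured 4.21 to 8.31 CPM in macula densa libraries and 4.41 to 35.0 CPM in control-cell libraries. Its log2 fold change of -1.73 ± 0.44 (SE; adjusted p = 0.0153) was -0.76 (adjusted p = 0.304) without the 5 libraries high in glomerular markers, and it also lost its call without replicate 2 on control diet or replicate 1 on low salt of the macula densa cells. Col15a1, a heparan and chondroitin sulfate collagen of vascular basement membranes, did not pass the test (adjusted p = 0.0620). It measured 0 to 7.39 CPM in macula densa libraries, 25.7 to 68.8 CPM in the 5 control-cell libraries high in glomerular markers and 0.420 to 1.46 CPM in the other 3.

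Among fibronectin and elastic fibre genes, 7 of 9 were lower and Fbn2 was higher. Fn1, the fibronectin gene, measured 2.57 and 0.733 CPM, then 2.68 and 3.28 CPM, in macula densa cells and 21.9, 13.0, 10.6 and 4.44 CPM, then 38.8, 26.9, 24.8 and 35.3 CPM, in control cells. No library of one population overlapped the other, and the log2 fold change was -3.17 ± 0.45 (SE; adjusted p = 0.000631). Fbn1, the main microfibril protein, was at 0.570 to 2.26 CPM and 3.69 to 10.8 CPM (log2 fold change -2.68 ± 0.46 SE, adjusted p = 0.00223). Fbn2, the fibrillin more abundant in development, was at 1.06 to 3.83 CPM and 0.103 to 1.23 CPM (log2 fold change 2.10 ± 0.50 SE, adjusted p = 0.0116), and passed 0.05 neither without the 5 libraries high in glomerular markers (log2 fold change 2.27, adjusted p = 0.182) nor without replicate 1 of macula densa cells on low salt.

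The other lower members of this class were Eln (elastin), Fbln5, which is needed for elastic fibre assembly, Fbln2, Emilin1 and Emilin2. Emilin1, a protein at the interface of elastin and microfibrils, measured 2.87 and 0.815 CPM, then 0.383 and 0.656 CPM, in macula densa cells. In control cells it measured 24.3, 22.2, 16.4 and 1.24 CPM, then 5.53, 16.9, 5.04 and 19.5 CPM, so replicate 4 on control diet lay within the macula densa range. Its log2 fold change was -3.79 ± 0.82 (SE; adjusted p = 0.00749), and -1.38 (adjusted p = 0.258) without the 5 libraries high in glomerular markers. Eln and Fbln5 had log2 fold changes of -3.74 ± 0.77 and -3.33 ± 0.61 (SE; adjusted p = 0.00584 and 0.00325), which were -2.46 and -2.39 and lost the call in that same reduced set (adjusted p = 0.177 and 0.200). Fbln2 had 0 counts in both macula densa libraries on low salt and was at least 5.44-fold lower there (adjusted p = 0.0159), and Emilin2 had 0 counts in both on control diet and was at least 7.92-fold lower there (adjusted p = 0.0301). Neither call held without the 5 libraries (adjusted p = 0.101 and 0.217), and Emilin2 averaged over both diets did not pass there either (adjusted p = 0.137).

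Of the other collagens, 5 of 20 were higher and 7 lower. Col7a1, the collagen of anchoring fibrils, measured 3.08 and 2.85 CPM in macula densa cells on control diet and 6.90 and 8.04 CPM on low salt. Control cells had 1.53, 0.940, 1.14 and 1.45 CPM, then 1.998, 1.22, 0.840 and 1.22 CPM, all below the macula densa libraries. The log2 fold change was 1.83 ± 0.26 (SE; adjusted p = 0.000650). Col5a2, a chain of the fibril collagen type V, reached a higher level, at 50.5 and 69.4 CPM, then 37.0 and 19.4 CPM, in macula densa cells. Control cells had 6.23, 10.6, 31.0 and 30.6 CPM, then 7.30, 12.2, 21.4 and 6.51 CPM, which overlapped, and the log2 fold change was 1.44 ± 0.43 (SE; adjusted p = 0.0310). Leaving out any 1 macula densa library, or control-cell replicate 2 on control diet or 1, 2 or 4 on low salt, lost the call of Col5a2, and without the 5 libraries high in glomerular markers its log2 fold change was 0.99 (adjusted p = 0.103). Its usual partner Col5a1 went the other way, at 0.326 to 0.656 CPM against 0.620 to 3.76 CPM (log2 fold change -1.89 ± 0.55 SE, adjusted p = 0.0292), and lost its call without any 1 macula densa library, without control-cell replicates 1 or 2 on control diet, or 1 or 4 on low salt. Without those 5 libraries the log2 fold change of Col5a1 was -0.83 (adjusted p = 0.792).

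Col16a1, Col20a1 and Col24a1 were called higher at levels of at most 2.95 CPM in any library, with log2 fold changes of 1.30, 1.67 and 1.09 and adjusted p-values of 0.0298, 0.0415 and 0.0484. Col20a1 overlaps BX649560.1 on the same strand, so its count is uncertain. It is among 7 members that overlap a gene on the same strand, with Col4a1, Col4a3, Col5a2, Col25a1, Lama3 and Lamc1. Col25a1 held 61 counts over all libraries, and the larger gene overlapping it held 23. Leaving out 1 library lost the call of Col16a1 for 6 of the 12 libraries, of Col20a1 for 9 and of Col24a1 for 10. Without the 5 libraries high in glomerular markers the 3 values were 1.22, 1.71 and 0.82, with adjusted p-values of 0.481, 0.338 and 0.686. The lower members were Col1a2, Col3a1, Col5a1, Col12a1, Col13a1, Col25a1 and Col26a1. Col1a2, a chain of fibrillar type I collagen, measured 4.62 and 0.652 CPM, then 0.766 and 0.656 CPM, in macula densa cells and 17.8, 13.8, 8.19 and 1.34 CPM, then 16.4, 11.3, 2.10 and 9.05 CPM, in control cells (log2 fold change -2.88 ± 0.79 SE, adjusted p = 0.0225). The populations overlapped, and without the 5 libraries high in glomerular markers the value was -1.41 (adjusted p = 0.377). Col1a2, Col3a1 and Col26a1 lost their calls without macula densa replicate 2 on control diet or either on low salt, and Col25a1 without replicate 2 of either diet. Without the 5 libraries, Col12a1 went from -2.24 to -1.43 (adjusted p = 0.117), and Col25a1 was not tested. Col1a1 did not pass (adjusted p = 0.0847).

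**Figure D4:**
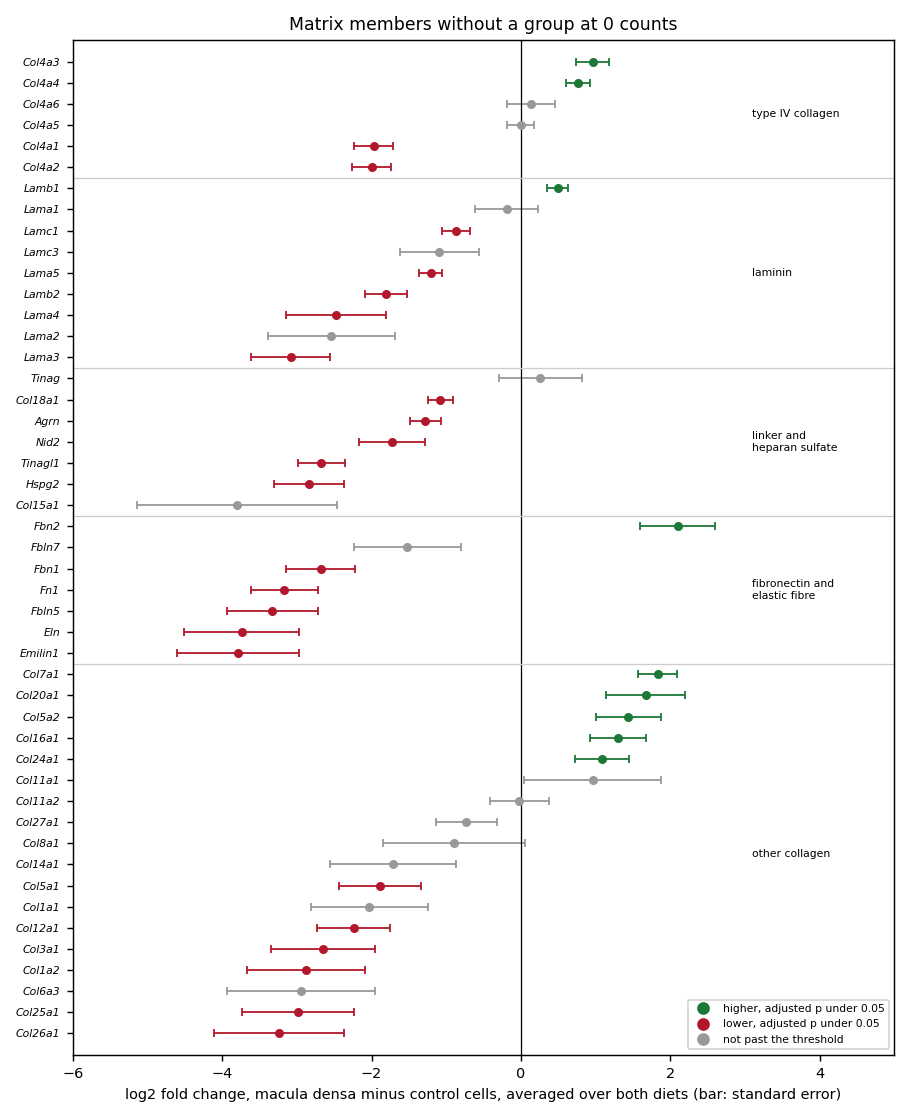
Log2 fold change of macula densa against control cells averaged over both diets (x axis), with standard errors as bars, for the tested members reported here that had counts in every group (y axis, by class). Green points passed as higher, red points as lower, and grey points did not pass; type IV collagen chains lie on both sides of 0, while linkers and elastic fibre genes lie mostly to the left.

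On each diet alone, fewer members passed. On control diet 15 were lower and none higher (28.3% of 53 lower), against 3.92% of all genes lower and 2.69% higher, with a median log2 fold change of -1.90 for the members. At an unadjusted p under 0.05, 28 members were lower and 5 higher, against 15.6% and 8.67% of all genes. Limma voom called 17 lower and 3 higher (all genes 6.28% and 7.25%), and the DESeq2 Wald test 26 and 2 (all genes 9.95% and 4.15%). On low salt 15 were lower and 4 higher (28.3% and 7.55%), against 4.13% and 3.15% of all genes, with a median of -1.60. The 4 higher members on low salt were Col7a1 (log2 fold change 2.43 ± 0.36 SE, adjusted p = 0.00298), Col4a3 (1.37 ± 0.31, adjusted p = 0.0225), Col4a4 (1.18 ± 0.23, adjusted p = 0.0110) and Lamb1 (0.69 ± 0.19, adjusted p = 0.0490). On control diet the same genes had log2 fold changes of 1.22, 0.55, 0.35 and 0.29, none of which passed. Of the 4, Col7a1 alone passed on low salt without either macula densa library of that diet, and Lamb1 did not pass without the 5 control-cell libraries high in glomerular markers (0.55, adjusted p = 0.220).

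These counts rest on few libraries. On control diet, most member calls were lost without either macula densa library of that diet, and fewer of all genes were called too. Without control-cell replicate 4, 27 of 51 tested members passed, and calls over all genes rose from 6.61% to 17.7%. On low salt, too, most member calls were lost without either macula densa library of that diet, and fewer of all genes were called. Without control-cell replicate 2, 12 of 52 tested members passed, and calls over all genes fell from 7.27% to 4.29%. The bounds above for Nid1 and Fbln2 on low salt and Emilin2 on control diet each lost their call without either macula densa library of that diet, and Emilin2 also without control-cell replicate 3. Each of these calls was also lost with limma voom, and in a fit with the replicate number of the titles as a block. For the average over both diets, limma voom lost the calls of Col1a2, Col3a1, Col5a1, Col20a1, Col26a1, Eln, Emilin1, Emilin2, Lama4 and Nid1. With library totals in place of TMM scaling, the median over all genes was 0.14 instead of -0.06 for the average over diets, and the split of member calls was 9 higher and 27 lower for that average, 2 and 12 on control diet, and 4 and 12 on low salt. Over all genes, the same change of scaling turned 1061 higher and 1966 lower into 1827 and 1450 for the average.

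The levels of many members moved with the glomerular markers inside the control cells. In 20 of the 53 tested members (37.7%), the 3 control-cell libraries low in podocyte and endothelial markers were all below the other 5, which was so for 12.9% of all genes tested. The 20 included Nid1, Nid2, Hspg2, Col15a1, Lama4, Lamb2, Lamc1, Col4a1, Col4a2, Tinagl1, Emilin1, Eln, Fbln2, Fbln5 and Fbn1, and also Col4a3. Other cell types differed as well: fibroblast and mesangial markers (7 genes) summed to 2.95 to 27.6 CPM in macula densa libraries and 25.6 to 184.1 CPM in control-cell libraries, and smooth muscle and renin cell markers (5 genes) to 19.2 to 37.4 CPM and 100.9 to 531.8 CPM. Markers of the parietal epithelium of the glomerular capsule (5 genes) summed to 37.1 to 52.9 CPM and 107.5 to 215.4 CPM, and were at 109.3, 215.4 and 178.5 CPM in the 3 control-cell libraries low in podocyte and endothelial markers. Thick ascending limb markers (6 genes) ran the other way, at 2269 to 4095 CPM in macula densa libraries and 199.9 to 1511 CPM in control-cell libraries. In those 3 control-cell libraries they were at 1511, 735.1 and 946.3 CPM, and in the other 5 at 199.9 to 976.0 CPM. Replicate 4 on control diet was also the highest control-cell library in distal convoluted and connecting tubule (628.9 CPM), principal (782.1 CPM) and intercalated cell markers (313.1 CPM). Replicates 1 and 3 on low salt had at most 135.0, 337.0 and 106.1 CPM of these. Proximal tubule markers (6 genes) also tended higher in macula densa libraries, at 30.7 to 118.1 CPM against 8.82 to 62.2 CPM. Macula densa libraries held 10.7 to 34.2 CPM of principal cell markers. Intercalated cell markers were at 15.5 to 30.4 against 18.7 to 313.1 CPM, and leukocyte markers at 2.20 to 7.18 against 4.62 to 119.7 CPM. Distal convoluted and connecting tubule markers were at 74.9 to 169.3 and 67.4 to 628.9 CPM. No marker on these lists was at 0 in all macula densa libraries, and their part in the member differences was not tested.

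The macula densa libraries were next set against the 3 control-cell libraries low in glomerular markers alone, of which those with 486.5 and 478.2 CPM of these markers were still above every macula densa library (at most 331 CPM). All 4 macula densa libraries lay below all 3 for 17 of the 53 tested members (32.1%), against 8.36% of all genes. Among them were Col4a1, Col4a2, Lama5, Lama3, Lamb2, Lamc1, Hspg2, Agrn, Col18a1, Tinagl1, Fn1, Fbn1, Fbln2 and Fbln5. All 4 lay above all 3 for Col4a3, Col7a1 and Col16a1, which is 5.66% of the members against 6.93% of all genes. Fitted without the other 5 control-cell libraries, 16 members were lower and 2 higher, against 4.37% and 2.99% of the 14936 genes tested there, and all 18 had been called in the full set. The 2 higher were Col4a3 (log2 fold change 1.45, adjusted p = 0.000283) and Col7a1 (1.65, adjusted p = 0.0423). The median of the members was then -1.05. The values without those 5 libraries were -1.47 for Col4a1, -1.46 for Col4a2, -1.22 for Lamb2, -2.27 for Lama3 and -2.45 for Fn1, each past the threshold. On control diet this reduced set had 1 control-cell library. All its libraries are also in the full set, so calls shared by the 2 fits are not independent. The libraries to leave out were chosen after seeing the data, and the part of glomerular cells in the differences was not tested. Replicate 4 on control diet also stood apart in tubule markers, so the reduced set differed in more than glomerular content.

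**Figure D5:**
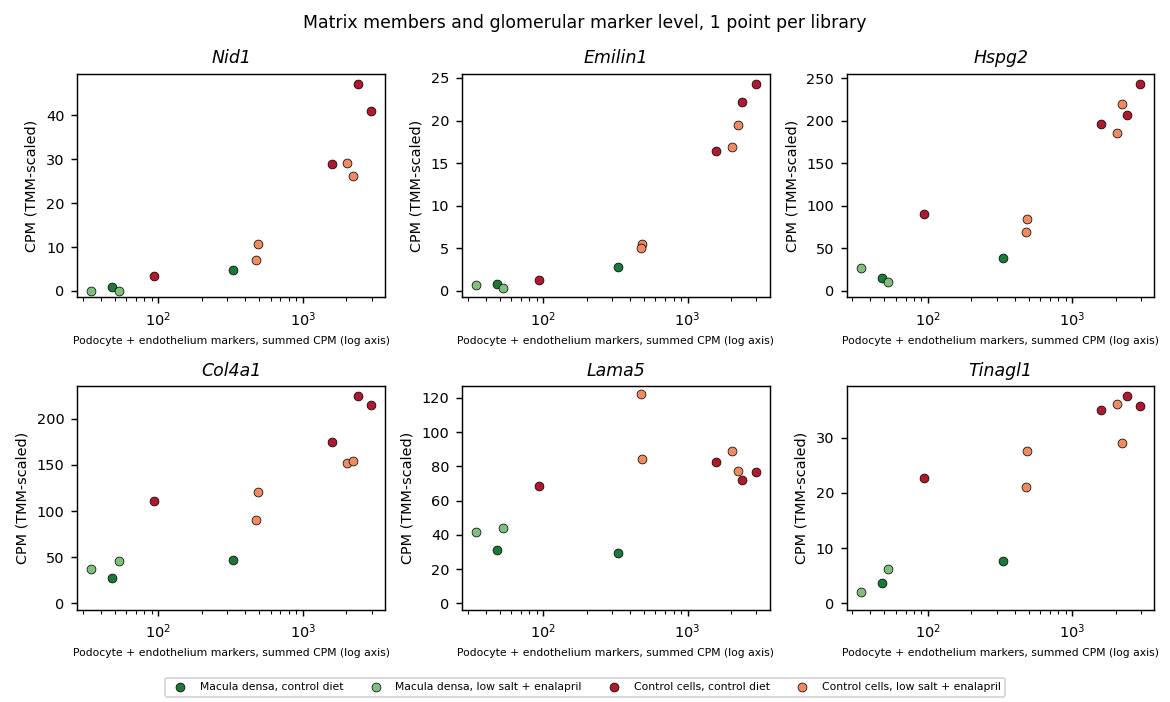
CPM of 6 members (y axis) against the summed CPM of podocyte and endothelial markers (x axis, log scale), 1 point per library, coloured by group. Nid1 and Emilin1 were within the macula densa range in the control-cell library with 93.5 CPM of markers, while Col4a1, Lama5 and Tinagl1 stayed above every macula densa library there, at 110.6, 68.5 and 22.6 CPM.

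The diet comparison within each population asked whether low salt with enalapril, which stimulates macula densa signalling and renin release, moved these genes. No member passed the edgeR test in macula densa cells (0 of 53, against 0% of all genes); the DESeq2 Wald test called 1, Nid1 (0.656% of all genes), and limma voom 0 (0.0282% of all genes). At an unadjusted p under 0.05 there were 7 members (13.2%), against 11.2% of all genes. The smallest p was that of Col7a1, 3.08 and 2.85 CPM on control diet and 6.90 and 8.04 CPM on low salt (log2 fold change 1.33 ± 0.42 SE, adjusted p = 0.311). Lamc3, Col13a1 and Emilin2 also had higher values and Eln, Nid1 and Col11a2 lower ones on low salt, each at 4.82 CPM or less in every macula densa library, and their adjusted p-values were 0.368 to 0.442. Several members, among them Lamb1, Col4a3, Col4a4, Lama5 and Agrn, were higher in both low salt libraries than in both control diet libraries without passing the test. Others, among them Lama3, Lama4, Col5a2 and Emilin1, were lower in both. With 2 libraries against 2, such separation often arises by chance, and its share over all genes was not computed. For Nid1, Eln and Emilin1, the highest macula densa library was replicate 1 on control diet. That library was also the macula densa library highest in podocyte and endothelial markers, and the part of those cells was not tested. In simulated counts for this comparison (13449 genes tested), 21% of 200 genes given a 4-fold change were called, with 0 false calls. The 200 were drawn from all genes that passed the filter, and the groups had no other difference. The share is thus not the power for these members.

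In control cells no member passed either (0 of 53, against 0.00705% of all genes, the same share as with limma voom, which called 0 members). At an unadjusted p under 0.05 there were 4 members (7.55%), against 6.45% of all genes, and all 4 were higher on low salt. Col1a1, the main chain of type I collagen, measured 0.547, 0.564, 0.381 and 0.620 CPM on control diet and 13.4, 2.45, 2.10 and 1.63 CPM on low salt (log2 fold change 3.24 ± 0.77 SE, adjusted p = 0.360). Col3a1, the fibrillar collagen that accompanies it, measured 1.86, 0.658, 2.19 and 0.930 CPM, then 17.5, 7.35, 2.31 and 2.75 CPM (log2 fold change 2.43 ± 0.62 SE, adjusted p = 0.411). Every low salt library was above every control diet library for both genes, and replicate 1 on low salt was the highest. Without that library the log2 fold changes were 1.92 for Col1a1 and 1.52 for Col3a1. The DESeq2 Wald test called these 2 genes (adjusted p = 0.0184 and 0.0482), and 0.522% of all genes. Fn1 had a log2 fold change of 1.34 ± 0.42 (SE; adjusted p = 0.587). Fbn2 was the remaining gene (1.97 ± 0.67 SE, adjusted p = 0.659), with values that overlapped between diets. Of 200 genes given a 4-fold change in simulated counts for the control cells, drawn in the same way, 61.5% were called, with 9 false calls (13715 genes tested).

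The difference between the 2 diet effects was tested as an interaction term. No member passed (0 of 53, against 0% of all genes, and 0 members with DESeq2 and limma voom, against 0.0917% and 0% of all genes), and 5 had an unadjusted p under 0.05 (9.43%, against 7.03% of all genes). These were Col11a2, Col18a1, Col3a1, Col4a4 and Col7a1, with adjusted p-values of 0.635 to 0.709. The higher values of Col4a3, Col4a4, Lamb1 and Col7a1 in macula densa cells on low salt are thus not shown to differ from those on control diet.

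Genes that make, bind and cleave these proteins were followed in 4 lists, read against the 13.9% of all tested genes that were lower and the 7.48% that were higher. Unlike the member calls, the calls in these lists were not checked with single libraries left out. Nor were they checked without the control-cell libraries high in glomerular markers. Of 24 tested genes for collagen hydroxylation, folding, processing and crosslinking, 5 (20.8%) were lower in macula densa cells and none higher averaged over both diets (median log2 fold change -0.42). Lox, the lysyl oxidase that crosslinks collagen and elastin, had 0 counts in all 4 macula densa libraries and averaged 1.56 ± 0.711 CPM and 1.70 ± 0.702 CPM (SD, n = 4 each) in control cells on the 2 diets. Loxl2, Loxl3 and Bmp1, the last a procollagen proteinase, had log2 fold changes of -3.33 ± 0.83, -3.45 ± 0.86 and -2.43 ± 0.54 (SE). Of 16 tested receptors for collagen and laminin, 8 were lower (50%) and 2 higher (12.5%; Itga1 and Sdc4), with a median of -0.93. Itga3, the integrin alpha chain that binds Lama5-containing laminins, averaged 10.9 ± 6.65 and 13.2 ± 1.44 CPM (SD, n = 2 each) in macula densa cells and 53.7 ± 22.0 and 45.6 ± 11.2 CPM (SD, n = 4 each) in control cells (log2 fold change -2.05 ± 0.35 SE, adjusted p = 0.00211). Ddr2, a collagen receptor kinase, Itga7 and Itga2 had log2 fold changes of -2.64, -2.51 and -2.44.

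Of 18 tested matrix proteases and inhibitors, 6 were lower (33.3%) and 2 higher (11.1%; Mmp14 and Mmp16), with a median of -2.10, against 13.9% and 7.48% of all genes. Plat, the tissue plasminogen activator, averaged 15.7 ± 17.1 and 1.04 ± 1.24 CPM (SD, n = 2 each) against 173.3 ± 121.6 and 156.0 ± 79.2 CPM (SD, n = 4 each; log2 fold change -5.37 ± 1.09 SE, adjusted p = 0.00545). Htra1 and Adamts1 had log2 fold changes of -3.77 ± 0.82 and -2.45 ± 0.56 (SE). Of 17 tested basement membrane and matrix glycoproteins outside the symbol pattern, 10 were lower (58.8%) and 3 higher (17.6%; Frem1, Ntn1 and Papln), with a median of -1.78. Frem1, a basement membrane protein of the Fraser complex, averaged 11.1 ± 0.895 and 52.1 ± 16.8 CPM (SD, n = 2 each) in macula densa cells and 0.419 ± 0.231 and 0.445 ± 0.384 CPM (SD, n = 4 each) in control cells (log2 fold change 5.93 ± 0.36 SE, adjusted p = 2.68e-06). Its partners Fras1 and Frem2 were among the 10 lower genes. Sparc and Ltbp4 had log2 fold changes of -4.02 ± 0.86 and -4.11 ± 0.89 (SE), and Egflam was at 0 counts in all macula densa libraries.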

How the data were processed

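Estimated counts of 12 libraries were deposited by the authors, who used STAR 2.61 and Partek with mm10, per the submitters' processing notes; 16.1% of its values were not whole, and values were rounded before testing. The libraries were made with a stranded total-RNA kit, per the labels' protocols, and no source used here gives the strand setting of the counting. Coordinates are those of the table, which matched GENCODE M21 (GRCm38) for 23351 of 23378 genes and all 67 members after 1 was taken from each end. The exon length of a gene is the union of its exons there. No column lacked a sample (0 columns). Genes were kept by filterByExpr of edgeR 4.0.16 (R 4.3.3) with count minima of 10 per gene and 15 in total, and scaled by TMM. A quasi-likelihood fit (glmQLFit, glmQLFTest) took all 12 libraries with 1 coefficient for each of the 4 groups, with Benjamini-Hochberg adjustment over 14180 genes at 0.05. Standard errors are the log2 fold change over the square root of F. The members, the 4 lists, the marker lists and the naming rule (basement membrane members, Fn1, Col1a1, Col1a2 and Col3a1 by library, the 3 smallest p-values in each direction, and up to 4 genes with the largest changes per list) were chosen with earlier results of these data known. The fit was tested on simulated counts. No 2 replicate libraries agreed within sampling noise. Numbers in the titles and in the descriptions are shared between groups, and what they mark is not stated. Each shared description number joins a macula densa and a control-cell library on the same diet, while title numbers also cross diets. Deviations correlated above 0.1 in 2 of 14 pairs by title, 1 of 4 by description and 12 of 34 that share neither. So few pairs cannot exclude pairing. The main fit took the libraries as unpaired, with a block by each number as an alternative. Alternatives were DESeq2 1.42.0 size factors and Wald test, library totals, no filter, a mean of 5 CPM, mitochondrial and ribosomal RNA genes left out, limma 3.58.1 voom with sample weights, only the groups compared, a threshold of 0.01, both blocks, each library left out, and, chosen after seeing the data, the 5 control-cell libraries highest in podocyte and endothelial markers left out. Floors of 3 counts cover counting error only. The values of 1 member and 1 listed gene are not reported here, though both are in the counts.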

Additional observations from a re-analysis of the deposited data

Results flagged for a closer look

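In each control-cell group of 4 libraries, the gap between the farthest library and its nearest neighbour was compared with the whole range on the scale of log2(CPM + 0.5) for the 53 tested members. Of the 106 sets, 6 had a library set apart by more than the critical value of Dixon's test, and chance gives about 5.30 such sets. Replicate 4 on control diet was far below the others for Col15a1 (0.930 CPM against 38.3 to 68.8), Emilin1 (1.24 CPM against 16.4 to 24.3) and Tinagl1 (22.6 CPM against 34.9 to 37.5). That library had 93.5 CPM of podocyte and endothelial markers, against 1588 CPM or more in the rest of its group, and the part of those cells in these values was not tested. Replicate 1 on control diet was above the others for Emilin2 (4.37 CPM against 1.34 to 1.62). On low salt, replicate 3 was below the others for Col27a1 (2.52 CPM against 6.37 to 7.53) and replicate 4 above them for Lama3 (17.8 CPM against 9.45 to 10.5).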

How the results depend on the processing

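For the average over both diets, 36 members passed; 21 did with a filter at a mean of 5 CPM (25 tested), 23 at a threshold of 0.01, and 18 without the 5 control-cell libraries high in glomerular markers. Leaving out 1 library gave 25 to 40. On control diet 15 passed (6.61% of all genes), against 28 with the DESeq2 Wald test (14.1%). A fit of only the groups compared gave 9 (3.54%), and the threshold of 0.01 gave 6 (1.7%). Leaving out 1 control-cell library gave 10 to 27 (2.94% to 17.7%). Fewer than 15 passed without the 5 libraries or without either macula densa library of that diet. On low salt 19 passed (7.27% of all genes), against 11 with limma voom (3.64%) and 4 at 0.01 (1.77%). Leaving out 1 control-cell library gave 12 to 24 (3.68% to 13.5%), and fewer than 19 passed without either macula densa library of that diet. A replicate block by title number gave 28 for the average (13.5% of all genes), 7 on control diet (2.67%) and 10 on low salt (2.79%). A block by description number gave 37 (26%), 27 (16.2%) and 31 (15.7%). Neither block made a member call in the diet comparisons or the interaction that it could fit. On average over diets, the block by title number lost the call of Col4a3 (adjusted p = 0.0973). For the diet, DESeq2 called 1 member in macula densa cells and 2 in control cells, and the set without the 5 libraries 1 in control cells, where the lone control-diet library is assumed to vary like the other groups. Called on average in every alternative that tested them at 0.05 were 14 members: Col7a1 higher, and Agrn, Col13a1, Col18a1, Col4a1, Col4a2, Fbln2, Fbn1, Fn1, Hspg2, Lama3, Lama5, Lamb2 and Tinagl1 lower. Col13a1 lay near the floor, with 0, 0, 0 and 2 counts in macula densa libraries and 0.547 to 3.57 CPM in control-cell libraries. Its call changed in 16 of 22 alternatives on low salt and in 6 of 22 on control diet.

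Of 2015 alternative values for 88 gene results, 19 changed sign, 283 lost the call and 25 gained one. The 19 were in results that had not passed the test. On average over diets, Col4a5 gave -0.01 without a filter, -0.06 with voom, -0.04 and -0.12 with the replicate blocks by title and description, and -0.21 to 0.17 leaving out 1 library. Col4a6 gave -0.20 with the block by title number and -0.07 to 0.30 leaving out 1 library. Lama1 gave 0.02 with library totals and -0.88 to 0.16 leaving out 1 library, and Tinag -0.17 to 0.61. Without the 5 libraries, Col15a1 gave 0.71 and Tinag -0.42, and Col5a1 between diets in control cells 0.87. Why these values moved was not tested. With 2 macula densa libraries per diet, leaving out 1 assumes that the other varies like the remaining groups.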
